A study of Mus musculus with 8 samples.

Results

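Transcripts of chemokines and myeloid growth factors that activated T cells can release were examined in CCR8+ and CCR8- conventional CD4+ T cells (Tconv cells) of mouse tumors. The set held 9 genes, namely Ccl1, Ccl3, Ccl4, Ccl5, Xcl1, Cxcl3, Csf1, Csf2 and Il3, out of 11233 genes with values, and all 9 were found by symbol. The genes were selected on their values in the CCR8+ and CCR8- libraries described here. Their differences between the populations are therefore given as a description, and no p-value is given for them.

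The study asked how CCR8+ Tconv cells differ from CCR8- Tconv cells once regulatory T cells (Treg cells) have been removed. It used bulk RNA-Seq of 8 sorted populations, 4 CCR8+ and 4 CCR8-, each numbered as replicates 1 to 4. Both groups were tumor-infiltrating Foxp3EGFP-ve T cells of the genotype Foxp3-EGFP_DTR, in which Treg cells carry EGFP and a diphtheria toxin receptor. Both groups were treated with DTx, diphtheria toxin, so that neither comes from a host with its full Treg cells. The tumors were B16-F10, a transplantable melanoma line grown under the skin, and no ages are given in the labels. The labels do not say whether CCR8+ and CCR8- libraries of the same number came from the same mouse.

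Chemokines are small secreted proteins that draw leukocytes along a gradient, and each acts through receptors found on particular cells. CCL3, CCL4 and CCL5 attract monocytes and T cells, CCL1 is a ligand of CCR8 itself, XCL1 attracts cross-presenting dendritic cells through XCR1, and CXCL3 attracts neutrophils through CXCR2. CSF1 sustains macrophages, while CSF2 (GM-CSF) and IL-3 share a receptor beta chain and act on granulocytes, macrophages and their precursors. Activated T cells make many of these proteins, but macrophages also make several of the chemokines.

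The values are normalized counts, that is, reads per gene divided by 1 factor per library, and each log2 fold change compares CCR8+ with CCR8- libraries on log2(normalized count + 1), which understates differences of genes with few reads. The libraries held between 12067780 and 17802628 reads over the listed genes, and 3 reads came to between 2.21 and 3.42 normalized counts. CCR8- replicate 1 had the fewest genes detected (8569, against up to 10882), and 242 genes were at 0 in it that had at least 100 normalized counts in each of the other libraries, compared with 44 in CCR8+ replicate 1 and 36 in CCR8+ replicate 3. The gene of the sorting marker, Ccr8, averaged 20104.5 ± 16630.4 normalized counts in CCR8+ libraries and 3546 ± 2284 in CCR8- libraries (SD, n = 4 each). The summed T cell markers (Cd3d, Cd3e, Cd3g, Cd4, Cd2, Cd5 and Lck) were read in all libraries, at 77686 to 114153 normalized counts.

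Stretches of sequence are shown for the members at which a motif set one apart from most genes. The first pair lies upstream of the RefSeq start sites of Cxcl3 (chr5:90786001-90786100, plus strand) and Csf1 (chr3:107760570-107760669, minus strand), build GRCm38.p6, read 5′ to 3′. Capitals mark a stringent NF-kB motif of 10 bases, the NFAT motif GGAAA and the TATA box TATAAA, on either strand.
Cxcl3 promoter: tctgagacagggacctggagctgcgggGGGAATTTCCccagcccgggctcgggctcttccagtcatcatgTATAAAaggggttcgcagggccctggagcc
Csf1 promoter: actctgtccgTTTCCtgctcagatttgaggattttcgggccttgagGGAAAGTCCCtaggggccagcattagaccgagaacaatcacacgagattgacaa

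Promoter windows of 7 members were found in the RefSeq table, each reaching from 250 bases before to 50 bases after the start, and those of Ccl4 and Ccl5 were not matched. The stringent NF-kB motif stood in 2 of the 7, Cxcl3 at position -73 and Csf1 at position -154 from the start, against 0.411% of 32851 promoters of the same length. The stringent motif ends in TTTCC, which is GGAAA on the other strand, so every match to it also holds an NFAT match. The letters GGAAA stood in 7 of 7 member promoters and in 61.3% of all promoters, and Ccl1, Csf1 and Csf2 held 3 matches each, a count that 9.42% of promoters reach. TATAAA was found in the Cxcl3 window alone, at position -30 (13.6% of all promoters), and the AP-1 motif TGANTCA in 0 of 7 (7.81% of all). A looser NF-kB motif, which also matches the stringent one, and the CRE-like motif TGANNTCA were found in 5 of 7 and 0 of 7, against 50.8% and 14.1% of all promoters. The RefSeq start of Csf2 lies 232 bases upstream of the GENCODE start, so its window does not cover the same bases. For the other 6 the starts lie within 23 bases of that of the main coding transcript.

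The second pair are AU-rich stretches of the 3′ untranslated regions, where proteins that speed mRNA decay can bind. Capitals mark the nonamer TTATTTATT, with overlapping matches merged, in Csf2 (chr11:54247326-54247348, minus strand) and Cxcl3 (chr5:90787876-90787886, plus strand), GRCm38 with GENCODE M21.
Csf2 site: tTTATTTATTTATTTATTTATTt
Cxcl3 site: gTTATTTATTg

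The Csf2 stretch holds 4 overlapping nonamers, and 99.8% of the 10299 tested genes with such a region have fewer. Cxcl3 holds 1, and 7.54% of those genes hold any. The other 7 members hold 0 in the 1 annotated transcript counted for each gene. The shorter motif ATTTA was densest in Csf2, at 28.4 per kb, followed by Ccl3 (12.2 per kb), Il3 (9.90 per kb), Cxcl3 (7.75 per kb), Xcl1 (7.09 per kb) and Ccl4 (6.62 per kb). Csf1 had 1.89 per kb, near the median of 1.30 per kb, and Ccl1 and Ccl5 had 0. The densities of Il3 and Xcl1 rest on 1 match each. Their annotated regions are short, at 101 and 141 bases, against a median of 983 bases over the tested genes.

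Of the 9 members 6 lie on chromosome 11, in 2 neighborhoods and at Ccl1. Csf2 (54247271 to 54249667) and Il3 (54265303 to 54267277) are 15635 bases apart. Ccl3 (83647844 to 83649355), Ccl4 (83662584 to 83664683) and Ccl5 (83525778 to 83530518) lie together, with 13228 bases between Ccl3 and Ccl4. Cxcl3 is on chromosome 5 (90786103 to 90789600), Csf1 on chromosome 3 (107741048 to 107760469) and Xcl1 on chromosome 1 (164931644 to 164935527). The positions follow GRCm38, whereas the reads were aligned to the older NCBIM37, so they say only where each gene lies.

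The members differed in direction. Cxcl3 was higher and Ccl5 lower in the CCR8+ library of each same-numbered pair, and the other 7 members were higher in some pairs and lower in others. Of the 9 estimates 5 lay above 0, and their median log2 fold change was 0.12, beside 0.04 over all 11032 tested genes. In the 4 pairs the median over the members was 0.34, 2.01, -3.11 and -0.24. In these bulk samples, fewer cells that make a transcript and less of it per cell cannot be told apart.

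The CCR8+ and CCR8- values overlapped for 9 of 9 members. For the non-overlapping pattern the background was 2.37% of tested genes with all CCR8+ values above and 2.03% with all below. A difference of 1 sign in 4 of 4 pairs was held by 1 member upward and 1 downward, with backgrounds of 8.44% and 8.1%. Over all tested genes, limma called 0 at an adjusted p under 0.05 (0%, so 0 of the 9 members), and 562 (5.09%) had an unadjusted p under 0.05. The sorting marker gene Ccr8 was not called either (adjusted p = 0.83 by limma), so the lack of calls does not show that the populations are alike. The study itself, using DESeq2, reported genes that differed between these populations. On the recovered reads edgeR called 0 genes and DESeq2 called 26 (0.236%), with 1 member, Cxcl3, among them. Nothing is read from these counts, since the members were chosen with the contrast known.

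**Figure D1:**
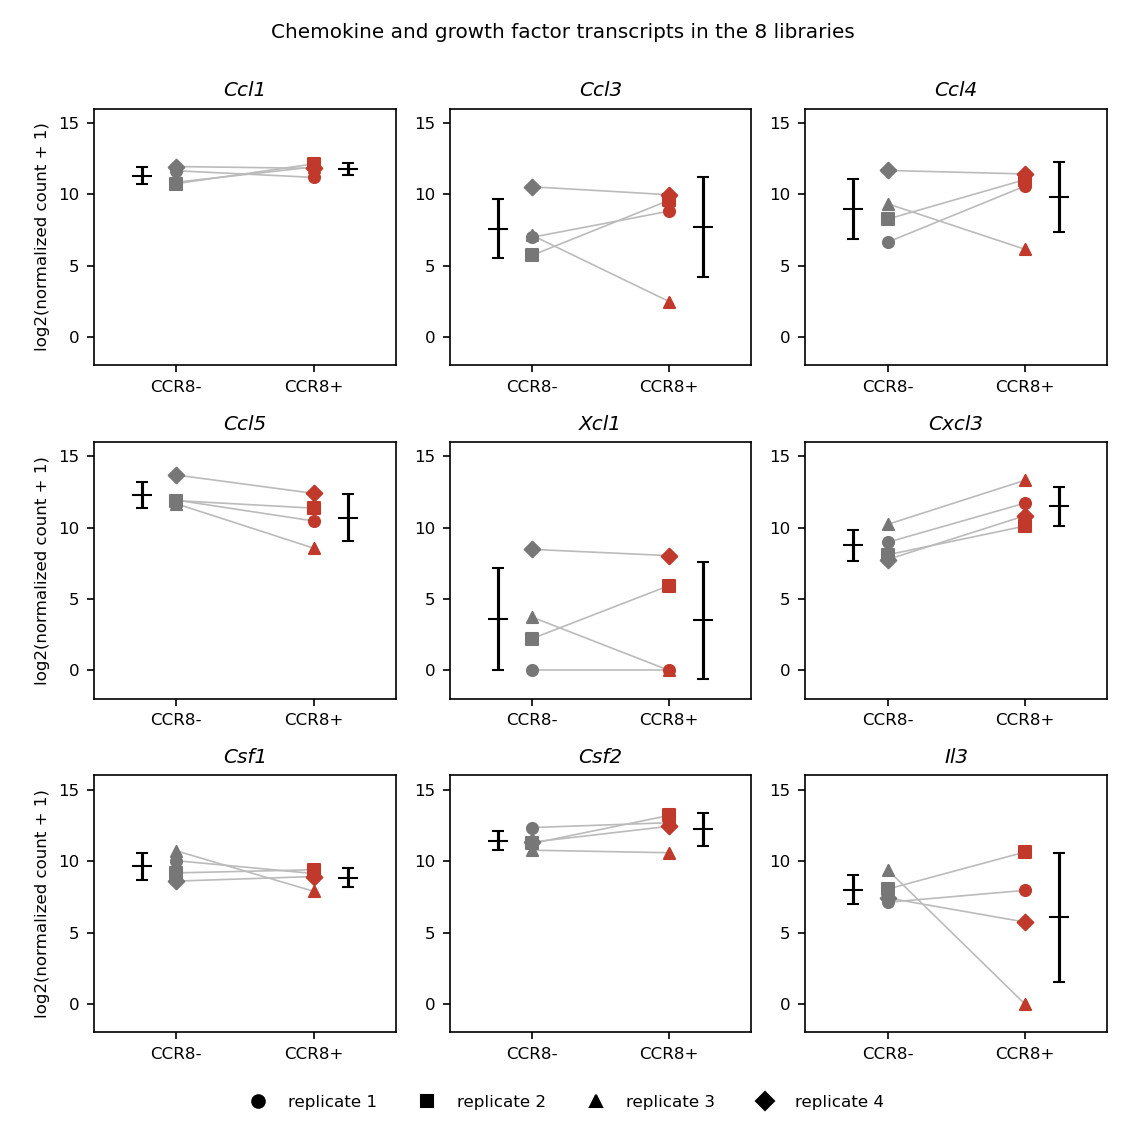
Each panel shows 1 gene as log2(normalized count + 1) in the 4 CCR8- (gray) and 4 CCR8+ (red) libraries, with lines joining libraries of the same replicate number and bars giving the mean and SD of each group. The 4 lines of Cxcl3 slope up and the 4 of Ccl5 slope down, while CCR8+ replicate 3 (red triangle) is at 0 for Xcl1 and Il3.

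Cxcl3, a ligand for the neutrophil receptor CXCR2, showed the largest difference among the members. It had 3356, 1102, 10173 and 1815 normalized counts in CCR8+ replicates 1 to 4. In CCR8- replicates 1 to 4 it had 501, 273, 1198 and 217. The groups overlapped only through CCR8- replicate 3, which was above CCR8+ replicate 2. The means were 4111 ± 4149 in CCR8+ and 547 ± 451 in CCR8- (SD, n = 4), and the log2 fold change was 2.72 (standard error 0.68), or 6.60-fold on that scale. Within pairs 1 to 4 the difference was 2.74, 2.01, 3.08 and 3.06 on the log2 scale, so that the pairs spread less than the libraries did. With 1 library left out, the log2 fold change was between 2.12 and 3.21. Of the 3587 windows of 50 bases pooled over all annotated Cxcl3 transcripts, 152 (4.24%) also occur in other genes, 126 of them in other Cxcl genes. The share within the main coding transcript of 1016 bases was not computed. Only uniquely mapped reads were counted.

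Ccl5, which attracts T cells and monocytes, went the other way. Its values were 1415, 2637, 377 and 5411 normalized counts in CCR8+ replicates 1 to 4. The CCR8- replicates 1 to 4 had 3898, 3804, 3264 and 13179. CCR8+ replicate 4 stood above 3 of the CCR8- libraries, and CCR8- replicate 4 was far above all others. The log2 fold change was -1.60 (standard error 0.71), from means of 2460.2 ± 2173 and 6036 ± 4769.9 (SD, n = 4). The pairs differed by -1.46, -0.53, -3.11 and -1.28, and without CCR8+ replicate 3 the log2 fold change was -0.88.

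Ccl3 and Ccl4, neighboring genes for ligands that attract monocytes and T cells, varied far more between libraries than between populations. Ccl3 had 447, 759.9, 4.56 and 994 normalized counts in CCR8+ and 125, 51.5, 138 and 1463 in CCR8- replicates 1 to 4. Ccl4 had 1506, 2064, 69.6 and 2732 in CCR8+ and 98.5, 304, 640.3 and 3234.5 in CCR8- replicates 1 to 4. For both, CCR8+ replicate 3 was the lowest of all libraries and CCR8- replicate 4 the highest. The log2 fold changes were 0.12 (standard error 1.58) for Ccl3 and 0.81 (standard error 1.21) for Ccl4, smaller than their standard errors. Both were higher in the CCR8+ library in pairs 1 and 2 and lower in pairs 3 and 4. Without CCR8+ replicate 3 the estimates were 1.87 for Ccl3 and 2.03 for Ccl4, and without CCR8+ replicate 4 that for Ccl3 was -0.63. Leaving out CCR8- replicate 1 gave 0.04 for Ccl4. The ratio of Ccl4 to Ccl3 was between 2.21 and 5.90 in 6 libraries, 0.787 in CCR8- replicate 1 and 15.2 in CCR8+ replicate 3, where Ccl3 had few reads.

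Xcl1, the ligand for XCR1 of cross-presenting dendritic cells, was close to absent from several libraries. It had 0, 60.5, 0 and 262 normalized counts in CCR8+ replicates 1 to 4. The CCR8- replicates 1 to 4 had 0, 3.68, 12.3 and 355. Most of its reads came from replicate 4 of each population, and 2 CCR8+ libraries and 1 CCR8- library were at 0. The log2 fold change of -0.11 (standard error 2.41) had no stable sign, lying between -1.63 and 1.51 with 1 library left out. Of its 523 exonic bases 98 are shared with Gm20743 on the other strand, whose reads cannot be told apart without strand.

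Ccl1, a ligand of the receptor that defined the sort, was the steadiest member. It had 2313, 4431, 3829.6 and 3582 normalized counts in CCR8+ and 3188, 1708, 1827 and 3914 in CCR8- replicates 1 to 4. All 8 libraries lay within 2.59-fold of each other, compared with 6.13-fold for Csf2, 7.14-fold for Csf1, 34.9-fold for Ccl5 and 321-fold for Ccl3. The log2 fold change was 0.46 (standard error 0.31), with pair differences of -0.46, 1.37, 1.07 and -0.13, and it was 0.28 without CCR8- replicate 2. The 2 populations overlapped for this CCR8 ligand but not for Ccr8 itself.

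Of the growth factors, Csf2 had the most reads. It had 6619.8, 9439.7, 1539.6 and 5562 normalized counts in CCR8+ replicates 1 to 4. The CCR8- replicates 1 to 4 had 5233, 2412, 1740.3 and 2577. Of the CCR8+ libraries 3 were above all CCR8- libraries, and replicate 3 was below all of them. The log2 fold change was 0.81 (standard error 0.51), with the CCR8+ library higher in 3 of 4 pairs, and it was 1.36 without CCR8+ replicate 3 and 0.49 without CCR8+ replicate 2. Gm12223 on the other strand shares 96 of the 800 exonic bases of Csf2.

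Il3, encoded next to Csf2, was highest and lowest in the same libraries as Csf2, and differed from it in sign in pair 4 only. It had 246, 1589.5, 0 and 52.2 normalized counts in CCR8+ and 138, 262, 671 and 170.4 in CCR8- replicates 1 to 4. The CCR8+ libraries included both the highest and the lowest value, and CCR8+ replicate 3 had no read. The log2 fold change of -1.91 (standard error 1.83) rested on that library and was 0.11 without it, and -3.43 without CCR8+ replicate 2. The means went the other way, at 472 ± 752 in CCR8+ and 310 ± 246 in CCR8- libraries (SD, n = 4). On the recovered reads edgeR gave 0.62 and DESeq2 0.61, but with the replicate number as a block they gave -0.72 and -0.75. The ratio of Csf2 to Il3 ran from 2.59 in CCR8- replicate 3 to 106.5 in CCR8+ replicate 4.

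Csf1, the growth factor of macrophages, had a lower mean in CCR8+ libraries. It had 559.8, 673, 236 and 484 normalized counts in CCR8+ replicates 1 to 4. The CCR8- replicates 1 to 4 had 1045, 578, 1685 and 387. The 2 highest values were CCR8- libraries and the lowest was CCR8+ replicate 3, but the CCR8+ library was lower in only 2 of 4 pairs. The log2 fold change was -0.80 (standard error 0.50), and it was -0.43 without CCR8- replicate 3 and -0.48 without CCR8+ replicate 3.

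**Figure D2:**
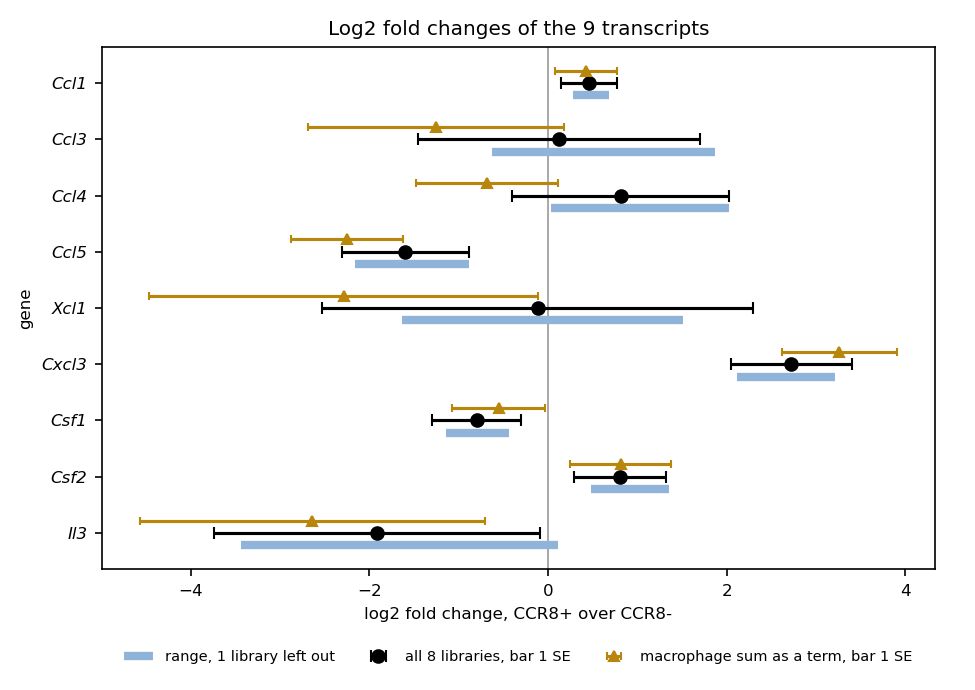
Log2 fold changes (CCR8+ over CCR8-) of the 9 genes over all 8 libraries (black, bar 1 SE), with the summed macrophage markers as a term in the fit (gold, bar 1 SE), and as a range with each library left out in turn (blue). Cxcl3 stays between 2.12 and 3.26, whereas Ccl3 and Ccl4 move from above 0 to -1.25 and -0.68 with the macrophage term.

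The sorted cells also held macrophage transcripts, in amounts that differed widely. The summed level of 12 of 12 macrophage and monocyte markers was 27344, 18795, 3262 and 25781 normalized counts in CCR8+ and 88.7, 4231, 1562 and 83964 in CCR8- replicates 1 to 4. Lyz2, a lysozyme gene of macrophages, had 19994, 7616, 1396 and 7266 in CCR8+ and 14.8, 1044, 449 and 28853 in CCR8- replicates 1 to 4. C1qa, a complement gene, had 291, 1017, 138 and 1196 in CCR8+ and 1.97, 279, 55.3 and 3229.96 in CCR8-. Csf1r, the receptor of CSF1, had 754, 403, 62.7 and 171 in CCR8+ and 0, 38.2, 14.0 and 611 in CCR8-. The macrophage sum was higher in the CCR8+ library of pairs 1 to 3, by 308-fold, 4.44-fold and 2.09-fold, and lower in pair 4, at 0.307-fold.

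The 4 libraries with the highest macrophage sums (CCR8- replicate 4 and CCR8+ replicates 1, 4 and 2) were also the 4 highest for Ccl3 and Ccl4. With the macrophage sum as a term in the fit, the log2 fold changes became -1.25 (standard error 1.43) for Ccl3, -0.68 (standard error 0.80) for Ccl4 and -2.29 (standard error 2.18) for Xcl1. The part of macrophage RNA in the values of these genes was not tested. For Cxcl3, the library with the highest macrophage sum, CCR8- replicate 4, had the lowest value. Its highest value was in CCR8+ replicate 3, which was sixth in macrophage sum. Within pairs, however, Cxcl3 moved in the direction of the macrophage sum in 3 of 4, as did Ccl1, Ccl3, Ccl4 and Il3, and the other members did so in 1 or 2. The sum was higher in the CCR8+ library in 3 pairs, so any gene that was higher in all 4, as Cxcl3 was, reaches that count. The part of macrophage RNA in the Cxcl3 values was not tested either. With the term, Cxcl3 had a log2 fold change of 3.26 (standard error 0.64) and Ccl5 of -2.25 (standard error 0.63). Ccl1, Csf1, Csf2 and Il3 kept their signs, at 0.43, -0.55, 0.82 and -2.64.

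**Figure D3:**
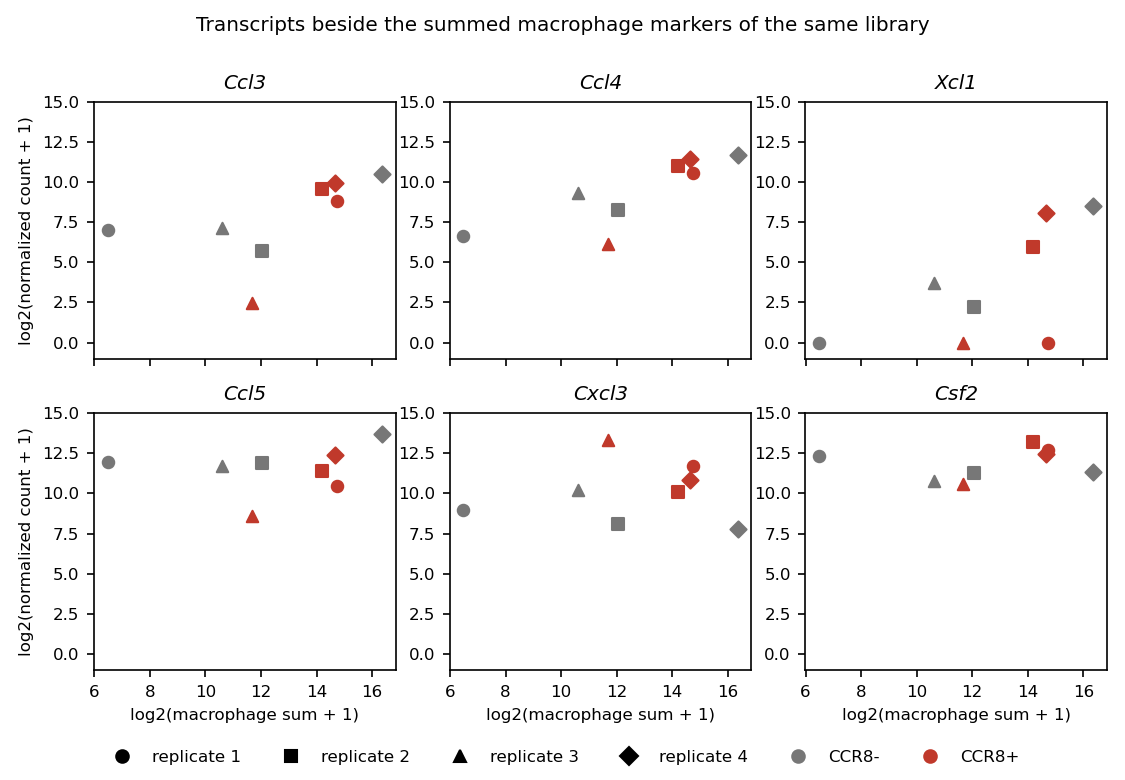
Each point is 1 library, with the summed macrophage markers on the x axis and the gene on the y axis, both as log2(normalized count + 1), CCR8- in gray and CCR8+ in red. Ccl3 and Ccl4 are highest in the 4 libraries at the right, whereas Cxcl3 is lowest in the rightmost library, at 217 normalized counts.

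Markers of other cell types also varied between libraries. The NK cell and CD8 T cell sum, over 4 of 6 listed markers, was 478 to 1227 normalized counts in CCR8+ and 980.1 to 4060.2 in CCR8- libraries. The highest sum was in CCR8- replicate 4 and the lowest in CCR8+ replicate 3, which were also the highest and lowest libraries for Ccl5. Ncr1 was at 0 in 6 libraries and Klrb1c in 5. The part of such cells in the Ccl5 values was not tested. Neutrophil markers (2 of 6 listed) summed to 0 in CCR8+ replicate 3, where Cxcl3 was highest, and to at most 380.4 elsewhere. Of these markers S100a8 was at 0 in 2 libraries and Csf3r in 3, and CCR8+ replicate 3 was among the libraries that lacked genes read in all others. The part of neutrophils in the Cxcl3 values was not tested. The dendritic cell sum (5 of 7) was 844 to 1824, the mast cell and basophil gene Cpa3 (1 of 6) 0 to 68.4, the fibroblast sum (3 of 4) 0 to 1301 and the melanoma sum (5 of 5) 105 to 21698 normalized counts.

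Per kb of the main coding transcript, Ccl5, Ccl1 and Csf2 had the highest levels, with medians over all libraries of 6643, 6585 and 4881 normalized counts per kb. Ccl4 followed at 1626 and Cxcl3 at 1132, then Ccl3 at 382, Il3 at 331, Csf1 at 136 and Xcl1 at 15.3 normalized counts per kb. Most neighbors in this order were not separated by the libraries. Ccl5 was above Ccl1 in 5 of 8 libraries, Ccl1 above Csf2 in 5, Ccl4 above Cxcl3 in 4, Ccl3 above Il3 in 4 and Il3 above Csf1 in 5. Csf2 was above Ccl4, and Cxcl3 above Ccl3, in 7 of 8 libraries, and Csf1 was above Xcl1 in 6.

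**Figure D4:**
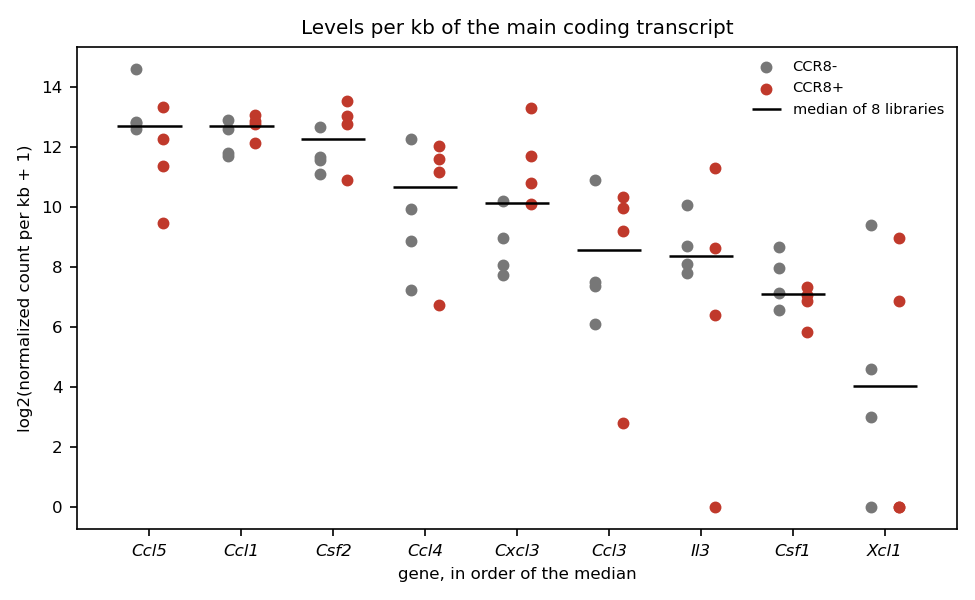
Levels of the 9 genes as log2(normalized count per kb of the main coding transcript + 1), with each library as a point (CCR8- gray, CCR8+ red) and the median of 8 libraries as a line. The order runs from Ccl5 (median 6643 per kb) to Xcl1 (15.3 per kb), and the points of most neighbors overlap.

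The genes with the most similar pattern were sought by the root mean square difference of centered log2 values over the 8 libraries, among 11030 genes. Cxcl3 lay closest to Il5 (0.49), the eosinophil growth factor, and to Hdc (0.64), which makes histamine. Ccl4 lay closest to Lgmn (0.69) and Ddx25 (0.70), Ccl3 to 6430531B16Rik (1.02) and Mcm10 (1.09), and Xcl1 to Trem2 (0.72) and Zc2hc1a (1.04). Ccl5 lay closest to Rsad2 (0.46), an interferon-induced gene, and Slamf7 (0.59). Csf2 was closest to Apool (0.38) and Rnaseh2b (0.49), Il3 to Hrh4 (1.05) and Ttc7b (1.17), Ccl1 to Atpif1 (0.21) and Slc23a2 (0.23), and Csf1 to Carm1 (0.29) and Mtmr1 (0.30). Ccl3 and Ccl4 were each other's nearest member, at 1.09, with 1 gene outside the set nearer to Ccl3 and 18 nearer to Ccl4. For the other members the nearest member was Csf2 for Ccl1 (0.87) and Csf1 (1.13), Ccl1 for Csf2 (0.87) and Cxcl3 (1.72), Csf1 for Ccl5 (1.37), Ccl4 for Xcl1 (2.14) and Ccl3 for Il3 (2.32), with between 234 and 5249 genes outside the set nearer still. The replicate libraries behind these distances are few, and they are a description only.

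Genes around the members were counted in lists, in each of which limma called 0 genes at an adjusted p under 0.05. Of 21 tested other chemokine ligands, 18 had estimates above 0 (median log2 fold change 1.73), compared with 52.4% of all tested genes, and 4 had an unadjusted p under 0.05, all higher in CCR8+ libraries, namely Ccl24, Cxcl2, Cxcl5 and Cx3cl1. Of the 21 genes, 9 had the pair signs of the macrophage sum, against 5.36% of all tested genes. In CCR8- replicate 1, which had the lowest sum, 18 were at or under 3 reads, as were 2940 of all tested genes. With the macrophage sum as a term, the median was -0.33 and 9 estimates lay above 0. The part of macrophage RNA in this list was not tested. Cxcl2 and Cxcl5 are CXCR2 ligands like Cxcl3, and they are given here after their values were seen. Cxcl2 had 2568, 1013.5, 6179 and 756 normalized counts in CCR8+ and 113, 253, 740.3 and 1897 in CCR8- replicates 1 to 4, and its log2 estimate was 2.06 ± 0.85 (SE, adjusted p = 0.838 by limma). Like Cxcl3 it was highest in CCR8+ replicate 3, but unlike Cxcl3 it was also high in CCR8- replicate 4, the library with most macrophage transcripts. Cxcl5 was also highest in CCR8+ replicate 3 (1186) with a log2 estimate of 4.39 ± 1.98 (SE, adjusted p = 0.838 by limma), with 2 CCR8- libraries at 0.

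Of 9 tested receptors of the members, 8 had estimates above 0 (median 1.94) and 3 an unadjusted p under 0.05, and Ccr1 and Ccr8 did not overlap between the groups. Ccr8 is in each of these counts, but it is the gene of the sorting marker, so its difference was set by the sort and nothing is read from it. The list includes Csf1r, itself among the macrophage markers, and 5 of the 9 genes were at or under 3 reads in CCR8- replicate 1. With the macrophage sum as a term, the median was 1.02 and 7 estimates lay above 0, and the part of macrophage RNA in these receptors was not tested. Ccr1, a receptor for CCL3 and CCL5, had 1201 ± 382 normalized counts in CCR8+ and 379 ± 205 in CCR8- libraries (SD, n = 4), or 1.88 ± 0.53 (SE) on the log2 scale (adjusted p = 0.83 by limma). For Ccr8 the log2 estimate was 2.37 ± 0.62 (SE, adjusted p = 0.83 by limma). Csf2rb, the receptor beta chain shared by CSF2 and IL-3, was the third, at 4.10 ± 1.72 (SE) on the log2 scale (adjusted p = 0.838 by limma).

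Among 11 other cytokines that act on myeloid cells, 9 estimates lay above 0 (median 1.34) and 4 had an unadjusted p under 0.05, all higher, namely Il5, Il13, Tnfsf11 and Mif. With the macrophage sum as a term, the median was 0.65 and 9 estimates lay above 0. In CCR8- replicate 1, 2 of the genes were at or under 3 reads. The part of macrophage RNA in this list was not tested. Il5 and Il13, type 2 cytokines, did not overlap. Il5 averaged 19673 ± 15831.5 normalized counts in CCR8+ libraries against 2956 ± 1673 in the others (SD, n = 4 each), and its estimate on the log2 scale was 2.61 ± 0.48 (SE). Il13 averaged 565 ± 225 against 53.2 ± 18.5 (SD, n = 4 each), with an estimate of 3.38 ± 0.66 (SE), and limma gave an adjusted p of 0.788 for both. Both lie on chromosome 11 near Csf2 and Il3. Of 10 tested neighbors of Csf2 and Il3, 6 had estimates above 0 (median 0.55) and 4 an unadjusted p under 0.05, Il5 and Il13 again, Pdlim4 (lower) and Kif3a, a kinesin gene, whose groups did not overlap (log2 estimate 1.08 ± 0.34, SE, adjusted p = 0.838 by limma).

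Of 24 tested transcription factors of activated T cells, 15 had estimates above 0 (median 0.10) and 2 an unadjusted p under 0.05, Batf and Nfkb1, both higher. Batf, an AP-1 family factor, did not overlap, averaging 10464.6 ± 3837 normalized counts against 6588 ± 733 (SD, n = 4 each), or 0.61 ± 0.26 (SE) on the log2 scale (adjusted p = 0.838 by limma). Of 9 tested regulators of cytokine mRNA decay, 3 had estimates above 0 (median -0.12) and 1 an unadjusted p under 0.05. That gene was Zfp36l2, which encodes a protein that binds AU-rich stretches such as that of Csf2. It was lower in CCR8+ libraries without overlap, at 1511 ± 239 against 3590.2 ± 1371 normalized counts (SD, n = 4), or -1.18 ± 0.28 (SE) on the log2 scale (adjusted p = 0.83 by limma). For a single gene whose groups do not overlap, the exact two-sided permutation p is 0.0286, the smallest that 4 against 4 libraries allow. Among all tested genes, 2.37% had all CCR8+ values above and 2.03% all below. List genes without overlap were named for that pattern, so nothing is read from this p.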

How the data were processed

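RNA was extracted from FACS-sorted cells and converted to libraries by low-input cDNA amplification (Clontech SMARTer). The authors trimmed reads with cutadapt after FastQC, aligned them to NCBIM37 (mm9) with hisat2 and kept uniquely mapped reads, and the submitters' processing notes also name HTSeq and DESeq2. Neither tool versions nor strand settings were found (not given in the sources used here). The authors deposited a normalized signal for each gene, namely read counts scaled by 1 factor per library by the authors and named FPM, although their totals were 11469410 to 14394101 and not 1000000. All values (100%, tolerance 0.01) were whole multiples of 1 read, so reads were recovered. No sample column was unused (0), and 17 gene symbols had been turned into dates.

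Values were fitted as log2(normalized count + 1) with limma 3.58.1 in R 4.3.3, with an intensity trend, over the 11032 genes averaging 10 or more, and adjusted by Benjamini-Hochberg. The limit for a call was an adjusted p of 0.05. The limma, edgeR and DESeq2 steps were tested on simulated data. Limits set by depth cover counting error only, since PCR copies were not marked by molecular identifiers. The study calls its replicates biological, but the labels do not tie libraries to animals, and p-values measure the spread between these samples. The chi-square per degree of freedom between libraries of a group was far above sampling noise for every pair, so none was taken as a duplicate. Alternatives were other scalings, pseudocounts and filters, the replicate number as a block, the macrophage sum as a term, each library left out, edgeR 4.0.16 and DESeq2 1.42.0 on the reads.

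The members and lists were chosen with earlier results of these data known. Named were all members, list genes that were called or whose groups did not overlap, Lyz2, C1qa, Csf1r and Ccr8, and for each member the nearest member and the 2 nearest other genes. List genes with an unadjusted p under 0.05 were also named, after their values were seen. Promoters came from a RefSeq table (GRCm38.p6) and 3′ regions and positions from GENCODE M21 (GRCm38). 1 list of cell type markers is not reported here.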

Additional observations from a re-analysis of the deposited data

Results flagged for a closer look

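On the log2 scale, 3 values stood far from the other libraries of their group, by the gap to the nearest library as a share of the range of the group, each above Dixon's 95% critical value. CCR8+ replicate 3 was far below the other CCR8+ libraries for Ccl3, with a share of 0.846 (4.56 normalized counts against 447 to 994), and for Ccl4, with a share of 0.837 (69.6 against 1506 to 2732). CCR8- replicate 4 was far above the other CCR8- libraries for Ccl5, with a share of 0.873 (13179 normalized counts against 3264 to 3898). In all 20 groups of values were examined, the 9 members and the macrophage sum in each population, and chance flags about 1 in 20 groups.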

How the results depend on the processing

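The log2 fold changes of Ccl1, Ccl5, Cxcl3, Csf1 and Csf2 kept their sign in all 22 settings tried, and Cxcl3 lay between 1.77 and 3.26 in them. The signs of Ccl3 (-1.25 to 1.98), Ccl4 (-0.68 to 2.03), Xcl1 (-2.29 to 2.18) and Il3 (-3.43 to 0.62) did not hold, and the cause was not tested. With each library left out, the median over the members was between -0.63 and 1.05, genes without overlap numbered 699 to 968 against 485 (fewer samples overlap less often), and members without overlap 0 to 1, namely Cxcl3 without CCR8- replicate 3 or CCR8+ replicate 2, Csf2 without CCR8+ replicate 3 and Ccl5 without CCR8+ replicate 4. Leaving out the 3 libraries that lack genes read in all others, an alternative chosen after seeing the data, gave 2298 genes and 1 member (Csf2) without overlap and a median of 1.47. With the macrophage sum as a term the median over the members was -0.68.

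limma called 2 genes without the intensity trend, and DESeq2 called 26. When the fit held the replicate number as a block, 1 gene (Il5) was called by limma, 0 by edgeR and 124 by DESeq2. Those called by DESeq2 included Cxcl3 without the block, and Ccl5 and Cxcl3 with it. Nothing is read from these calls, since the members were chosen with the contrast known. The same-numbered libraries had correlations of deviations of 0.0682, 0.138, 0.108 and 0.217, against -0.17 to 0.10 for other pairings. Each CCR8+ library had its highest correlation with the CCR8- library of the same number. CCR8- replicate 1, however, had a higher one with CCR8+ replicate 3 (0.0954). In limma the block left the median over the members at 0.12 and narrowed the standard error of Cxcl3 from 0.68 to 0.27 and of Ccl5 from 0.71 to 0.40. Depth limits Xcl1 most, with 373 reads in CCR8+ and 332 in CCR8- libraries in all.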
